A study of Sus scrofa with 6 samples.

Results

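The NRF transcription factors and the antioxidant enzymes linked to them were followed through the reprogramming of pig fibroblasts. The 10 genes were the factors NFE2L1, NFE2L2 and NFE2L3, the inhibitor KEAP1, the glutathione synthesis genes GCLC and GCLM, the reductases NQO1 and TXNRD1, and the superoxide dismutases SOD1 and SOD2. They were taken by gene symbol from a deposited expression table of 18007 genes, and all 10 were present in it. Because they were picked with the difference between the cell types already known, their levels and differences are given here as a description, without a test.

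NRF2, the protein of NFE2L2, is a transcription factor of the cap'n'collar (CNC) family. In unstressed cells KEAP1 binds it and hands it to a CUL3 ubiquitin ligase for degradation, and oxidants or electrophiles that modify KEAP1 let NRF2 build up in the nucleus. There it pairs with a small MAF protein and binds antioxidant response elements (AREs) near genes for glutathione synthesis, quinone reduction and thioredoxin reduction. NFE2L1 and NFE2L3 encode related factors that are held in the membrane of the endoplasmic reticulum, and NFE2L1 is best known for raising proteasome subunit genes when proteasomes are inhibited. Much of the control of NRF2 acts on the protein, which RNA-seq does not measure.

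RNA-seq was done on 6 libraries. The PEF group held 3 lines of porcine embryonic fibroblasts (PEF5, PEF7 and PEF8), grown from ear tips of day 90 embryos of a Large White boar (Longwhite in the labels) and a Meishan sow. The piPSC group held 3 porcine induced pluripotent stem cell lines (piPSC5, piPSC7 and piPSC8), each made from its own PEF line, as the shared number tells, with a doxycycline-dependent lentivirus for Oct4, Sox2, Klf4 and cMyc (OSKM). Each line was sequenced once, so n = 3 lines a group. The 3 lines had the same parents, and the piPSC lines came from picked colonies put on mouse embryonic fibroblast feeders, whose fragments were not separated from pig fragments here.

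The libraries held 11010629 to 17836510 fragments, with the lowest totals in piPSC7 and piPSC8. Values are FPKM, the fragments of a gene per kilobase of its length, scaled to the total of the library. The 14 fibroblast markers summed to 6268 to 8973 FPKM in PEF and 340 to 554 FPKM in piPSC, and 13 of the 14 were called lower, that is at least 2-fold lower at a limma adjusted p under 0.05. Of 14 pluripotency markers, 9 were found, and POU5F1 and LIN28A were among those not found under their symbols. With limma 4 of them were tested, and none was called higher, with 2 higher at an unadjusted p under 0.05. NANOG was listed at 0 in all libraries but piPSC7, where it had 0.0919 FPKM. SOX2 had at most 0.0208 FPKM in PEF and 3.01, 2.49 and 0.129 FPKM in piPSC5, piPSC7 and piPSC8 (log2 difference 1.31, limma adjusted p = 0.0626, not called). KLF4 was called lower, from 17.4, 41.6 and 34.2 FPKM in PEF to 4.45, 9.40 and 12.9 FPKM in piPSC (log2 difference -1.71, limma adjusted p = 0.0177), a call lost in 3 alternatives, without PEF7, PEF8 or line 7 (limma adjusted p up to 0.107). LIN28B had at most 0.0367 FPKM in PEF and 2.51, 0.281 and 8.90 FPKM in piPSC (log2 difference 1.80, limma adjusted p = 0.0667, not called). Some alternatives called SOX2 and LIN28B higher, with limma adjusted p down to 0.00233 and 0.00953, while 12 and 14 alternatives did not. SOX2 and KLF4 were also carried by the lentivirus, and whether its RNA was counted in their rows was not tested. The epithelial, keratinocyte, endothelial, immune, and muscle and cartilage marker lists each summed to at most 37.2 FPKM in every library. The study describes the lines as male, but the Y-linked gene DDX3Y had 3439 and 4207 fragments in PEF8 and piPSC8 and none in lines 5 and 7. Results are therefore also given without line 8 where a call of a named gene was lost, and for some values that moved by over 1.5 times. In such bulk samples, fewer cells of a type and less RNA per cell cannot be told apart.

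The sequences before the gene starts are shown first, since they place the letters that NRF2 is known to bind. A window ran from 250 bases before to 50 bases after the start of each gene in the deposited table, and sequence came from the RefSeq pig genome of build Sscrofa11.1. The core ARE was searched as TGACNNNGC on both strands, and the AP-1 element as TGANTCA, which reads the same on both strands. Of 16995 windows, 2154 (12.7%) held the ARE letters and 954 (5.61%) the AP-1 letters.

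Of the 10 genes, 3 held the ARE letters, and they are printed with 10 bases on either side and the element in capitals, 5′ to 3′ on the strand that carries it. The NQO1 element lay at chr6:17292752-17292760, 18 bases before the start and on the strand of the gene. The GCLC element lay at chr7:27209383-27209391, 182 bases before the start, also on the strand of the gene. The TXNRD1 element lay at chr5:80236303-80236311, 34 bases before the start and on the opposite strand.
NQO1 element: ctagtcacagTGACTCAGCgagattctga
GCLC element: aaaacgaggcTGACCCGGCtcctcgccgc
TXNRD1 element: agagtcagaaTGACAAAGCaaaaatccac
The NQO1 element also spells an AP-1 element, the only one in the 10 windows. The 250 bases before the NQO1 start (chr6:17292520-17292769, plus strand, 52% G or C) are printed whole, with the element in capitals, because NQO1 varied most between the piPSC lines.
NQO1 upstream: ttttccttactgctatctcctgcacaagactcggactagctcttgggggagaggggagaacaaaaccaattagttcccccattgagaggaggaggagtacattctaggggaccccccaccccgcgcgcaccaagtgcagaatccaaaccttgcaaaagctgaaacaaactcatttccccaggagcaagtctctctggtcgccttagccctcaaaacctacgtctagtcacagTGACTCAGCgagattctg
No ARE letters were found in the windows of NFE2L1, NFE2L2, NFE2L3, KEAP1, GCLM, SOD1 and SOD2. A match is only a match of letters, and no binding was measured.

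Of the 10 genes, 3 were higher in all piPSC lines than in any PEF line (NFE2L3, GCLC and SOD1), 6 were lower in all piPSC lines (NFE2L1, NFE2L2, KEAP1, GCLM, NQO1 and SOD2), and TXNRD1 overlapped. Among all 12428 tested genes, 37.3% were higher, 26.8% lower and 64.1% either without overlap. A gene was tested if its mean over the 6 libraries was at least 0.5 FPKM, and all 10 passed. On the log2(FPKM + 1) scale, which understates the change of genes with low values, 2 of the 10 were at least 2-fold higher in piPSC and 4 at least 2-fold lower, against 22.5% and 19.3% of all tested genes. These 2-fold counts depended on the setting. With the libraries scaled to their median ratio GCLC fell short of 2-fold, at 0.97 on the log2 scale, while KEAP1 and GCLM passed it, at -1.24 and -1.13. GCLC also fell short without line 7, at 0.93. The median difference was -0.94 over the 10 genes and 0.20 over all tested genes. The choice of the 10 genes used this contrast, so nothing is read from their counts. Scaling each library to the median ratio of its genes brought the median of all tested genes to -0.01, and the differences below can be read against that shift of 0.20.

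**Figure D1:**
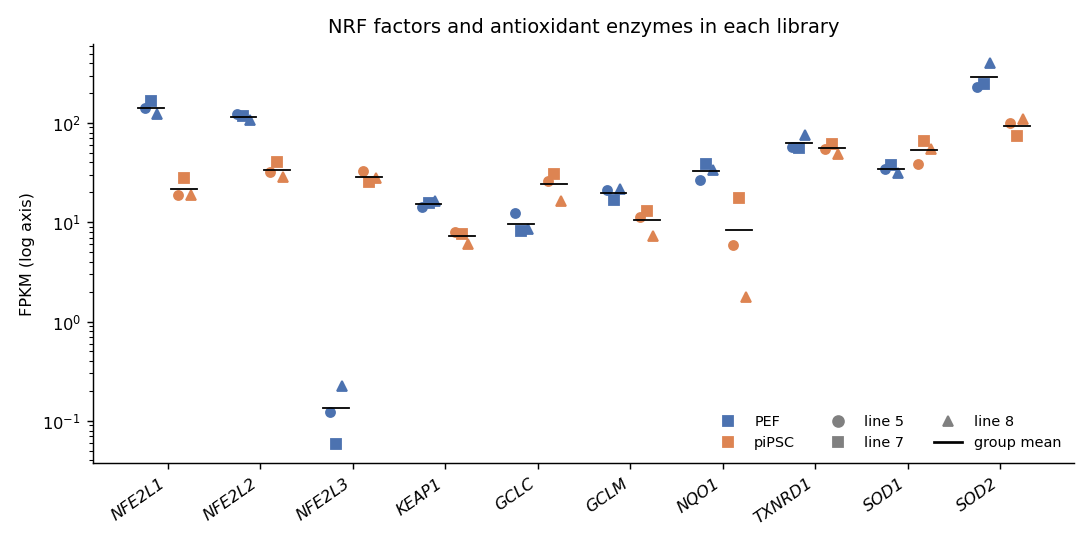
FPKM on a log axis for each of the 10 genes, with 1 point per library, PEF in blue and piPSC in orange, point shapes for lines 5, 7 and 8, and a bar at each group mean. NFE2L3 went from at most 0.225 FPKM in PEF to at least 25.2 FPKM in piPSC, and the NQO1 points of the 3 piPSC lines spread from 1.75 to 17.5 FPKM.

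The 3 factors differed in direction. NFE2L1 and NFE2L2 were abundant in PEF and several-fold lower in piPSC, while NFE2L3 was close to absent in PEF and reached the level of the other two in piPSC. NFE2L1 (ENSSSCG00000017525, chr12:24303394-24316764, plus strand) had 141, 166 and 122 FPKM in PEF5, PEF7 and PEF8 and 18.7, 27.7 and 18.8 FPKM in piPSC5, piPSC7 and piPSC8. The lowest fibroblast line was thus several times above the highest piPSC line. The group means were 142.9 ± 21.9 and 21.7 ± 5.19 FPKM (SD, n = 3 each), a log2 difference of -2.67 with an SE of 0.21. Line by line, NFE2L1 was 7.53-fold, 5.98-fold and 6.49-fold lower in piPSC5, piPSC7 and piPSC8 than in the parent line, so the lines resembled each other.

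NFE2L2 (ENSSSCG00000015987, chr15:82973655-83009164, minus strand) had 122, 117 and 108 FPKM in the PEF lines and 32.1, 40.4 and 28.7 FPKM in the piPSC lines, in the order 5, 7, 8. The PEF lines lay close together, with a coefficient of variation (CV) of 5.87%, and the groups were far apart. The log2 difference was -1.76 (SE 0.17), and the means of 115.7 ± 6.79 and 33.7 ± 6.05 FPKM (SD, n = 3) differed 3.43-fold. In single lines NFE2L2 was 3.80-fold, 2.90-fold and 3.78-fold lower.

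NFE2L3 (ENSSSCG00000026894, chr18:46217517-46250307, minus strand) had 0.123, 0.0582 and 0.225 FPKM in PEF5, PEF7 and PEF8, from 9, 4 and 14 fragments. In piPSC5, piPSC7 and piPSC8 it had 33.1, 25.2 and 27.7 FPKM, from 2049, 1231 and 1256 fragments. It was near the bottom of the tested genes in the fibroblasts and in the upper part in every piPSC line: its mean moved from the 2.65th to the 84.6th percentile of the tested genes. A gene this low in PEF passes the filter on the mean of all libraries only through its piPSC values. The low rank of NFE2L3 in PEF thus partly follows from the filter. The means of 0.135 ± 0.0840 and 28.7 ± 4.05 FPKM (SD, n = 3) differed 212-fold, and the log2 difference on the FPKM + 1 scale was 4.70 (SE 0.19). The ratio of a piPSC line to its parent was 270-fold, 432-fold and 123-fold, values that rest on the few fibroblast fragments and move with each of them.

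The 3 factors together summed to 262, 283 and 231 FPKM in PEF5, PEF7 and PEF8, and to 83.8, 93.3 and 75.2 FPKM in the piPSC lines. The factor transcripts were therefore fewer in every piPSC line, and their make-up differed. NFE2L1 gave 53.0% to 58.6% of the sum in PEF and 22.3% to 29.7% in piPSC, and NFE2L2 gave 41.4% to 46.9% and 38.1% to 43.3%. NFE2L3 gave 0.0206% to 0.0974% of the sum in PEF and 27.0% to 39.5% in piPSC. In piPSC the ranges of NFE2L2 and NFE2L3 overlapped, whereas in PEF all 3 factors had separate ranges.

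KEAP1 (ENSSSCG00000023667, chr2:69277996-69290053, minus strand), the inhibitor that brings NRF2 to the ligase, had 14.1, 15.6 and 16.2 FPKM in the PEF lines and 8.05, 7.65 and 6.01 FPKM in the piPSC lines. Every piPSC line was below every PEF line. The means of 15.3 ± 1.12 and 7.24 ± 1.09 FPKM (SD, n = 3) gave a log2 difference of -0.99 (SE 0.17). The ratio of NFE2L2 to KEAP1 was 8.66, 7.48 and 6.69 in PEF and 3.98, 5.28 and 4.77 in piPSC, so the transcript of the factor was further below its fibroblast level than that of its inhibitor.

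**Figure D2:**
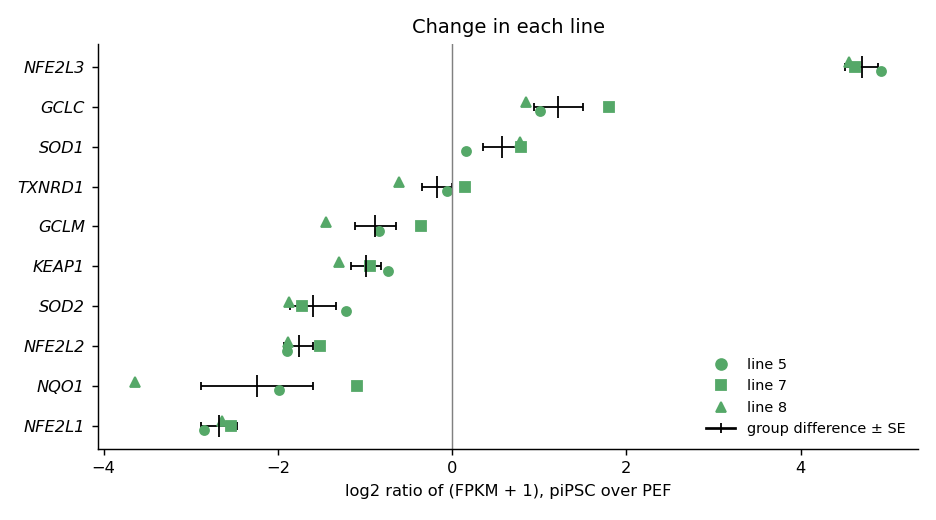
Log2 ratio of FPKM + 1 in each piPSC line over its own PEF line for the 10 genes, with point shapes for lines 5, 7 and 8 and a bar for the group difference ± 1 SE. NFE2L1, NFE2L2 and NFE2L3 have closely placed points, and NQO1 has the widest spread, from -1.10 in line 7 to -3.64 in line 8.

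Glutamate-cysteine ligase catalyses the rate-limiting step of glutathione synthesis, with GCLC as the catalytic and GCLM as the modifier subunit. The transcripts of the subunits differed in opposite directions. GCLC (ENSSSCG00000001488, chr7:27209565-27253530, plus strand) had 12.4, 8.11 and 8.53 FPKM in PEF5, PEF7 and PEF8 and 26.0, 30.6 and 16.2 FPKM in piPSC5, piPSC7 and piPSC8. GCLM (ENSSSCG00000037549, chr4:123371193-123390129, plus strand) had 21.2, 16.9 and 21.6 FPKM in the PEF lines and 11.4, 13.0 and 7.29 FPKM in the piPSC lines. Neither gene overlapped between the groups, although the gap was narrow for both. The log2 difference was 1.22 (SE 0.28) for GCLC and -0.88 (SE 0.24) for GCLM, with means of 9.67 ± 2.34 and 24.3 ± 7.38 FPKM for GCLC and 19.9 ± 2.61 and 10.6 ± 2.96 FPKM for GCLM (SD, n = 3).

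The ratio of GCLC to GCLM was 0.582, 0.480 and 0.394 in the PEF lines and 2.27, 2.35 and 2.22 in the piPSC lines, 0.486 ± 0.0941 and 2.28 ± 0.0666 (SD, n = 3). GCLM was the more abundant transcript in each fibroblast line and GCLC in each piPSC line. A ratio within a library does not depend on how libraries are scaled. Both genes were highest in piPSC7 and lowest in piPSC8 within the piPSC group, and piPSC8 had 1.90-fold more GCLC and 2.97-fold less GCLM than its parent.

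NQO1, a quinone reductase that uses NADH or NADPH and is widely used as a readout of NRF2 activity, was lower in each piPSC line but by very different amounts. NQO1 (ENSSSCG00000002754, chr6:17292770-17302627, plus strand) had 26.6, 38.6 and 33.2 FPKM in PEF5, PEF7 and PEF8 and 5.97, 17.5 and 1.75 FPKM in piPSC5, piPSC7 and piPSC8. Behind these were 913, 1241 and 969 fragments in PEF and 173, 401 and 37 fragments in piPSC. The fibroblast lines differed little, while the highest piPSC line had 10.0 times the level of the lowest. The piPSC CV was 97.1%, against 18.3% in PEF.

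The NQO1 means were 32.8 ± 6.0 FPKM in PEF and 8.41 ± 8.16 FPKM in piPSC (SD, n = 3), a log2 difference of -2.24 (SE 0.64). By line it was 4.45-fold lower in piPSC5, 2.2-fold lower in piPSC7 and 19.0-fold lower in piPSC8. The size thus depends on which piPSC line is included: the log2 difference was -1.56 without piPSC8 and -2.93 without piPSC7. It was -1.54 without both libraries of line 8, the line that differed from the others in DDX3Y.

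TXNRD1, the cytosolic thioredoxin reductase, was the gene of the 10 whose groups overlapped. TXNRD1 (ENSSSCG00000000843, chr5:80170334-80236277, minus strand) had 57.3, 56.0 and 75.4 FPKM in the PEF lines and 54.9, 62.0 and 49.1 FPKM in the piPSC lines. Lines 5 and 7 had nearly the same level in both cell types, and the higher PEF8 value made most of the gap between the means of 62.9 ± 10.9 and 55.3 ± 6.45 FPKM (SD, n = 3). The log2 difference was -0.18 (SE 0.18), and it was 0.042 without line 8. The sign is thus not settled, and with the libraries scaled to the median ratio all 3 piPSC lines were below all PEF lines, at -0.44.

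TXNRD1 made a smaller share of the thioredoxin reductase transcripts in piPSC than in PEF. TXNRD2, which encodes the mitochondrial enzyme, had 2.21, 2.01 and 1.54 FPKM in PEF and 9.12, 8.10 and 12.9 FPKM in piPSC, and TXNRD3, whose enzyme also reduces glutathione disulfide, had 8.70, 7.27 and 10.7 FPKM and 69.6, 47.4 and 28.7 FPKM. Both rose in all lines, by 1.90 (SE 0.23, limma, Benjamini-Hochberg adjusted p = 0.00114) and 2.25 (SE 0.33, limma adjusted p = 0.0022) on the log2 scale. TXNRD1 made 84.0% to 86.0% of the summed FPKM of the 3 reductases in PEF and 41.1% to 54.1% in piPSC. The sum was 65.2 to 87.6 FPKM in PEF and 90.7 to 134 FPKM in piPSC.

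The superoxide dismutases turn superoxide into hydrogen peroxide, SOD1 in the cytosol, SOD2 in mitochondria and SOD3 outside the cell. SOD2 was the most abundant of the 10 genes in both groups and lower in piPSC, whereas SOD1 was modestly higher. SOD2 (ENSSSCG00000040317, chr1:7679352-7691724, plus strand) had 232, 244 and 401 FPKM in the PEF lines and 99.2, 73.4 and 109 FPKM in the piPSC lines. PEF8 stood above the other fibroblasts, and the groups did not overlap. The means of 292.1 ± 94.5 and 93.9 ± 18.5 FPKM (SD, n = 3) gave a log2 difference of -1.60 (SE 0.27), and single lines were 2.33-fold, 3.32-fold and 3.67-fold lower.

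SOD1 (ENSSSCG00000021355, chr13:195326599-195335484, plus strand) had 34.3, 37.4 and 31.3 FPKM in the PEF lines and 38.4, 65.6 and 54.6 FPKM in the piPSC lines. Only a small step separated the lowest piPSC from the highest PEF line, and in line 5 the ratio was 1.12-fold against 1.75-fold in lines 7 and 8. The log2 difference was 0.58 (SE 0.22), with means of 34.4 ± 3.08 and 52.9 ± 13.7 FPKM (SD, n = 3). With the libraries scaled to the median ratio the groups overlapped and the difference was 0.32.

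The ratio of SOD2 to SOD1 was 6.74, 6.51 and 12.8 in PEF and 2.58, 1.12 and 2.00 in piPSC, and it did not overlap. SOD3 had 126, 147 and 40.3 FPKM in PEF and 2.60, 1.40 and 0.328 FPKM in piPSC, a log2 change of -5.35 (SE 0.57, limma adjusted p = 0.000792). It was the gene of the 6 lists described below with the lowest log2 difference. SOD3 made 8.53% to 34.4% of the summed FPKM of the 3 dismutases in PEF and 0.200% to 1.85% in piPSC, and the sum was 392 to 473 FPKM in PEF and 140 to 164 FPKM in piPSC. As SOD1 made 6.62% to 8.77% of that sum in PEF and 27.4% to 46.7% in piPSC, the cytosolic form took a larger share in every piPSC line.

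**Figure D3:**
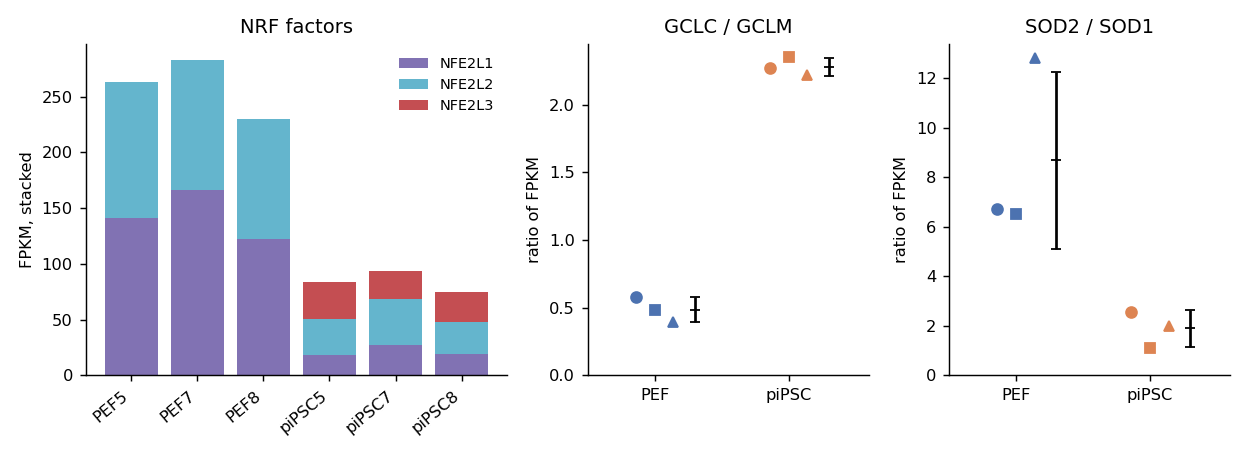
Left, stacked FPKM of NFE2L1, NFE2L2 and NFE2L3 in each library. Middle and right, ratios of GCLC to GCLM and of SOD2 to SOD1 (points for lines, PEF blue and piPSC orange, bars for mean ± SD, n = 3): the factor sum is lower and includes NFE2L3 in piPSC, the GCLC to GCLM ratio is at least 2.22 in each piPSC line, and the SOD2 to SOD1 ratio is lower there.

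In the order of levels, the fibroblasts ran from SOD2 through NFE2L1, NFE2L2, TXNRD1, SOD1, NQO1, GCLM, KEAP1 and GCLC to NFE2L3. Among neighbours in this order only SOD1 and NQO1 overlapped. The piPSC lines ran SOD2, TXNRD1, SOD1, NFE2L2, NFE2L3, GCLC, NFE2L1, GCLM, NQO1 and KEAP1. There SOD2 stood apart from TXNRD1, and NFE2L1 from GCLM, and all other neighbours overlapped. NFE2L1 thus went from the second to the seventh place and GCLC from the ninth to the sixth.

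Of the 6 genes that were lower in all piPSC lines, 4 had their lowest piPSC value in piPSC8 and 4 their highest in piPSC7. Among all 2070 tested genes called lower, 55.3% were lowest in piPSC8 and 42.8% highest in piPSC7, so piPSC8 was often the lowest line in general. The summed fibroblast markers were also lowest in piPSC8, at 340 FPKM, and highest in piPSC5, at 554 FPKM. Their part in the levels of the 10 genes was not tested.

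The genes nearest to NFE2L2 and to NQO1 in pattern over the 6 libraries were found by the mean absolute difference of log2(FPKM + 1), each gene centred on its own mean. Nearest to NFE2L2 were CBX7 at 0.061, SAR1A at 0.068, BCAR3 at 0.071, LITAF at 0.087 and NPR2 at 0.094. CBX7 and BCAR3 had low values, with means of 3.27 and 3.41 FPKM in PEF and 0.353 and 0.314 FPKM in piPSC. The FPKM + 1 scale understates their change, so they are near NFE2L2 on that scale only. Nearest to NQO1 were CCDC102A at 0.19, S100A11 at 0.20, JUP at 0.21, and CD82 and ANXA11 at 0.22 each. S100A11, for one, had 53.2, 56.5 and 62.4 FPKM in PEF and 12, 43.7 and 5.7 FPKM in piPSC5, piPSC7 and piPSC8, the same order of piPSC lines as NQO1.

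The other genes of the pathway were taken as 6 lists of 135 genes in all, of which 119 were in the table and 106 were tested with limma. The lists, like the members, were chosen with earlier results of these data known. Their calls and shares are therefore a description, and the shares of all tested genes beside them are no test of a list. A gene was called at a Benjamini-Hochberg adjusted p under 0.05 and a difference of at least 2-fold. Over the 6 lists 14 genes were called higher (13.2%) and 28 lower (26.4%), against 20.2% and 16.7% of all tested genes, and the median log2 difference was -0.11 against 0.20. Without line 5, 7 were called higher and 16 lower. The median of the 6 lists was -0.033 without line 8. With 3 lines against 3, an exact permutation test of a single gene cannot go below 0.1, so these calls rest on the spread that limma shares across genes. That spread is between lines of 1 library each, some of it possibly technical.

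Among 22 tested partners and regulators of the CNC factors, 6 were called higher and 3 lower, with a median log2 difference of 0.35, which was 0.096 with the median ratio and 0.044 with the equal FPKM sum. BACH2, a repressor that competes for the same elements, rose from 0.141, 0.495 and 0 FPKM in PEF to 1.78, 2.63 and 7.84 FPKM in piPSC, a log2 difference of 1.90 (SE 0.46, limma adjusted p = 0.0137). It had 17, 56 and 0 fragments in PEF and passes the filter only through its piPSC values. Its log2 difference ranged from 1.28 to 3.82 over the alternatives. FBXW7, the substrate receptor of a ubiquitin ligase that acts on CNC factors, rose from 3.81, 2.25 and 4.07 FPKM to 11.3, 11.8 and 8.78 FPKM, a log2 difference of 1.43 (SE 0.24, limma adjusted p = 0.00368). Both were higher in every piPSC line than in any PEF line. MAFF, one of the small MAF partners, fell from 97.5, 152 and 66.0 FPKM to 6.74, 15.6 and 1.81 FPKM (log2 difference -3.82, SE 0.65, limma adjusted p = 0.00377), with the piPSC lines in the order seen for NQO1.

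SQSTM1, the p62 adaptor that binds KEAP1 and directs it to autophagy, fell from 287, 459 and 360 FPKM to 46.4, 61.2 and 30.1 FPKM, a log2 difference of -3.01 (SE 0.30, limma adjusted p = 0.000632). The third gene called lower was MAFG, another small MAF, at a log2 difference of -1.04 (SE 0.20, limma adjusted p = 0.00548), which was named after its values were seen. Without line 5 the calls of MAFF (limma adjusted p = 0.0531), BACH2 (0.0538) and FBXW7 (0.0506) were lost. MAFG was lost as well (limma adjusted p = 0.0817). Without line 7, BACH2 (limma adjusted p = 0.0565) and MAFG (0.0549) were lost, and MAFG fell short of 2-fold without PEF7 or piPSC5 alone. The rest called higher, named after their values were seen, were HCFC1, AMER1, PALB2 and PGAM5, with log2 differences of 1.41, 1.40, 1.16 and 1.04. HCFC1 (limma adjusted p = 0.0531), AMER1 (0.0604) and PALB2 (0.0501) were lost without line 5. PALB2 was also lost without line 7 (0.0522) or line 8 (0.0732) and with the median ratio and the equal sum. PGAM5 fell short of 2-fold in 6 alternatives.

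Among 24 tested genes of glutathione synthesis, reduction and conjugation, 5 were called higher and 4 lower, with a median log2 difference of 0.13. Its sign depends on the scaling, at -0.076 with the median ratio and -0.11 with the equal FPKM sum. The median ranged from 0.037 without piPSC7 to 0.37 without piPSC8, and was 0.25 without line 8. GGCT, an enzyme of glutathione breakdown, rose from 7.21, 2.09 and 1.63 FPKM to 29.5, 48.1 and 24.9 FPKM, a log2 difference of 3.06 (SE 0.47, limma adjusted p = 0.00274). GSTO1, a glutathione transferase, rose from 18.3, 21.0 and 28.4 FPKM to 59.7, 108 and 45.6 FPKM, a log2 difference of 1.54 (SE 0.34, limma adjusted p = 0.00966). Both were highest in piPSC7, the line that was also highest for GCLC and GCLM.

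ABCC1, an exporter of glutathione conjugates, fell from 30.7, 36.0 and 77.7 FPKM to 5.60, 7.05 and 0.308 FPKM (log2 difference -3.46, SE 0.73, limma adjusted p = 0.00863). MGST1, a membrane-bound transferase, fell from 17.0, 43.7 and 30.4 FPKM to 6.06, 6.73 and 4.40 FPKM (log2 difference -2.14, SE 0.35, limma adjusted p = 0.00322). The calls that remain in this list were named after their values were seen: GSTA4, GLRX5 and GLRX3 were higher, with log2 differences of 1.49, 1.35 and 1.14, and SLC7A11 and MGST2 lower, with -1.92 and -1.74. SLC7A11, the transporter that brings in cystine for glutathione, averaged 15.3 ± 4.12 FPKM in PEF and 3.28 ± 0.918 FPKM in piPSC (SD, n = 3). Without line 5 the calls of GSTO1 (limma adjusted p = 0.0883), ABCC1 (0.0503), GSTA4 (0.0503) and MGST2 (0.154) were lost. MGST2 was also lost without line 7 and without PEF5 or piPSC5 alone (limma adjusted p = 0.0608 to 0.0901), and GLRX3 fell short of 2-fold with the median ratio and the equal sum, at 0.88 and 0.82 on the log2 scale. Genes of families such as the glutathione transferases can share reads, and how those were counted is not given in the sources used here.

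Among 20 tested thioredoxins, peroxiredoxins and related genes, 3 were called higher and 5 lower, with a median log2 difference of 0.25, which was 0.008 with the median ratio and -0.039 with the equal FPKM sum. The 3 were TXNRD2 and TXNRD3, described above, and PRDX3, a mitochondrial peroxiredoxin, at a log2 difference of 1.31 (SE 0.16, limma adjusted p = 0.00109), named after its values were seen. TXNIP, which binds and inhibits thioredoxin, fell from 49.2, 24.9 and 74.4 FPKM to 4.88, 1.68 and 1.04 FPKM (log2 difference -3.86, SE 0.52, limma adjusted p = 0.00163). SRXN1, which repairs overoxidised peroxiredoxins and is a known NRF2 target, fell from 101, 106 and 67.6 FPKM to 13.1, 22.7 and 4.38 FPKM (log2 difference -2.90, SE 0.53, limma adjusted p = 0.00488). The other three calls, also named after their values were seen, were MSRB3, MSRB1 and PRDX5, with log2 differences of -2.84, -2.43 and -1.19. Without line 5 the calls of SRXN1 (limma adjusted p = 0.0606) and PRDX5 (0.0811) were lost. PRDX5 was also lost without line 8 (limma adjusted p = 0.067) and, at -0.98 on the log2 scale, without piPSC8, and PRDX3 fell short of 2-fold with the equal sum, at 0.99.

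Of 10 tested peroxidases, catalase and other superoxide enzymes, none was called higher and 4 were called lower (40%), with a median log2 difference of -0.89. That median depended on line 8: it was -0.20, -0.52 and -1.29 in lines 5, 7 and 8, and -0.35 without line 8 or -0.42 without PEF8 alone. It was -0.37 with no filter on low values. Besides SOD3, GPX7, an endoplasmic reticulum peroxidase, fell from 15.6, 12.1 and 14.2 FPKM to 1.13, 0.694 and 5.76 FPKM (log2 difference -2.36, SE 0.51, limma adjusted p = 0.0094). Its call was lost without line 5 (limma adjusted p = 0.105) and without line 7 (0.0617). GPX8 and CAT, the catalase gene, were the others, with log2 differences of -1.64 and -1.12, named after their values were seen. Without line 8, CAT fell short of 2-fold, at -0.97 on the log2 scale. None of the 10 was higher at an unadjusted p under 0.05 with limma either.

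The list of other known NRF2 targets had the lowest median of the 6. Of 24 tested genes 12 were called lower (50%) and none higher with limma, against 16.7% and 20.2% of all tested genes. At an unadjusted p under 0.05 with limma, 2 were higher. Of these, TKT passed the adjusted p but not the 2-fold limit (log2 difference 0.96, limma adjusted p = 0.0159). TKT had 156, 141 and 88.6 FPKM in PEF and 224, 278 and 234 FPKM in piPSC, and was named after its values were seen. TKT was called higher without PEF5, PEF7 or piPSC5 alone. The median log2 difference of the list was -1.12, and -0.99, -1.04 and -1.14 in lines 5, 7 and 8. AKR1B1, an aldose reductase, fell from 448, 207 and 1079 FPKM to 22.0, 20.6 and 29.1 FPKM (log2 difference -4.24, SE 0.56, limma adjusted p = 0.00152). ABHD4, a lipid hydrolase, fell from 17.2, 33.8 and 24.2 FPKM to 2.93, 6.34 and 0.933 FPKM (log2 difference -2.72, SE 0.50, limma adjusted p = 0.00514). Leaving out line 5 left 7 of this list called lower. As the list was chosen with earlier results known, its low median and its share of calls are a description only.

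Within the 12 NRF2 targets called lower, 7 (58.3%) were lowest in piPSC8 and 8 (66.7%) highest in piPSC7, beside the 55.3% and 42.8% given above for all genes called lower. The fibroblast markers, which were lower in the same libraries, had a median log2 difference of -4.87, and their part in the list's values was not tested. The 6 tested NADPH oxidases and other oxidant sources gave no call in either direction with limma, with 1 higher and 1 lower at an unadjusted p under 0.05. Of them 1 passed the adjusted p but not the 2-fold limit. That gene was RAC1, a small GTPase of the oxidase complex, with 222, 200 and 267 FPKM in PEF and 115, 110 and 126 FPKM in piPSC (log2 difference -0.96, limma adjusted p = 0.00361), named after its values were seen. With the libraries scaled to the median ratio RAC1 was called lower, at -1.23 on the log2 scale. MAOB, a monoamine oxidase also named after its values were seen, was not called (log2 difference 2.97, limma adjusted p = 0.0724). It had 0.0426, 0.136 and 0.1 FPKM in PEF, from 2, 6 and 4 fragments, and 9.92, 43.7 and 0.276 FPKM in piPSC. MAOB thus passes the filter only through its piPSC values. Without line 8 it was called higher, at 4.34 (limma adjusted p = 0.0127).

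**Figure D4:**
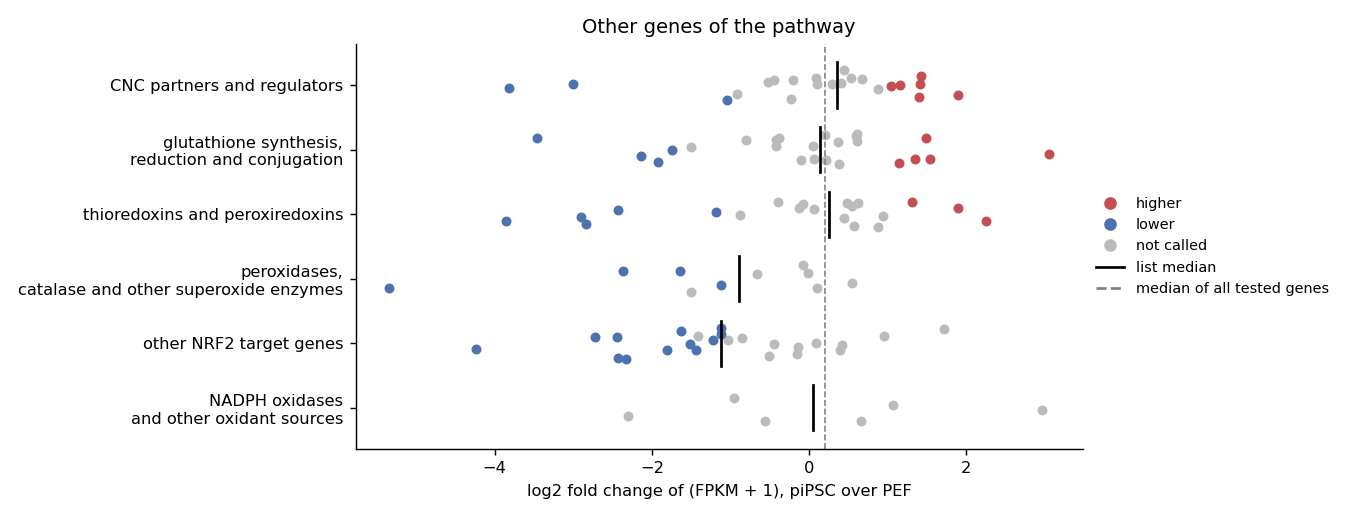
Log2 difference of FPKM + 1, piPSC over PEF, for the 106 tested genes of the 6 lists, 1 point per gene, red where called higher, blue where called lower and grey where not called. Black bars mark list medians, and the dashed line the median of all tested genes, 0.20: the list of other NRF2 targets lies furthest to the left, with a median of -1.12.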

How the data were processed

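RNA-seq libraries of 3 PEF and 3 piPSC lines were grouped by their labels. The authors deposited 1 table of FPKM values per gene; per the labels, Bowtie2 2.2.3, HISAT2 2.1.0 and HTSeq 0.6.0 were among the tools of the submitters' processing notes, on the pig build Sscrofa11.1. Strand and the handling of shared reads are not given in the sources used here.

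Whole fragments were recovered from the steps of the FPKM values (18007 genes, 100%, within 0.001 fragment) to give depth. FPKM values as deposited were tested as log2(FPKM + 1) with limma 3.58.1 (R 4.3.3), trended and unpaired, on 12428 genes with a mean of at least 0.5 FPKM, two-sided, with Benjamini-Hochberg adjustment. Tested on simulated data for this comparison (12428 genes), 188 of 200 genes changed 4-fold were recovered, with 5 others called. The simulation gave all genes the same spread and changed none of the lowest genes. In the real data 36.8% of genes were called, so these rates need not hold there. Depth ranged from 11010629 to 17836510 fragments, so 1 fragment on 1 kilobase was worth 0.0561 to 0.0908 FPKM.

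Each piPSC line was made from 1 of the PEF lines and carries its number, which pairs the samples. Within a line, the departures from the means of PEF and of piPSC correlated at 0.0921, 0.0946 and 0.080, and between lines at -0.121 to 0.0553. A fit with the line as a block was an alternative, as were another pseudocount, other filters and scalings, no trend, and leaving out libraries or lines.

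Gene names came from the deposited table or, for 902 of the 3375 genes it lists by ID only, from a table of gene IDs and symbols. Positions of 13933 of 13954 symbols (99.8%) overlapped those of the RefSeq genome. The members and lists were chosen with earlier results of these data known. Named by rule were all 10 members, the 2 called genes with the largest increase and the 2 with the largest decrease per list, and the 5 genes nearest in pattern to NFE2L2 and NQO1. Marker genes were named where a check of a label turned on them. Further list genes were named after their values were seen, as marked where they appear.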

Additional observations from a re-analysis of the deposited data

How the results depend on the processing

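Scaling moved the members' sizes but no direction. Log2 differences were, for the median ratio and the equal FPKM sum in turn, -2.03 and -2.08 for NFE2L2, -1.24 and -1.28 for KEAP1, -0.44 and -0.49 for TXNRD1, and 4.54 and 4.53 for NFE2L3, which was 6.99 with a pseudocount of 0.1. With the equal sum NFE2L1 was -2.99 and SOD1 0.26. Leaving out a library or line, TXNRD1 ranged from -0.33 to 0.042 and NQO1 from -2.93 to -1.54. The cause was not tested. Over all tested genes, 2505 were called higher and 2070 lower, against 1879 and 2511 with the median ratio and 1770 and 2618 with the equal sum. Leaving out a library or line gave 1715 to 2623 higher and 1281 to 2066 lower. In the 6 lists it gave 7 to 17 higher and 16 to 31 lower, with the lowest counts without line 5, where 20 of the 42 calls were lost; that fit has 4 libraries. By list, leaving out line 5 left 1 higher and 1 lower among CNC partners, 3 and 2 for glutathione, and 3 lower among thioredoxins, which had 5 higher without piPSC8; CNC partners had 3 higher without line 7. With the line as a replicate block, 2462 and 2023 genes were called, and 14 and 29 in the lists, with all 42 list calls kept. None of the 42 changed direction in any of the 17 alternatives. Of the 5 genes nearest to NFE2L2, 2 were kept with a pseudocount of 0.1 and 3 with the median ratio, and of those nearest to NQO1, 1 was kept with a pseudocount of 0.1. The planned voom fit on recovered fragments was not run, so no count-based fit stands beside these. Depth limits NFE2L3 in PEF, which rests on at most 14 fragments a library, and NQO1 in piPSC8, which rests on 37.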
